A study of Mus musculus with 6 samples.

Results

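The library labelled left 1038 is 1 of 6 RNA-seq libraries made from the olfactory bulbs of 3 mice, and its gene levels stood far from those of the other 5. It was selected on these measured values: each gene's CPM (its share of the library's reads, as counts per 1000000) was compared with the range over the other 5 libraries. Every difference from that range is therefore a description of 1 library, without a replicate check and without a test. It is not read here as an effect of naris occlusion, and no cause was tested. Left 1037 and left 1039 carry the same side label. For the genes that mark the contrast, on which left 1038 was set apart, those libraries stood with the right bulbs. For Th, Omp and S100a5 those libraries stood below the right bulbs.

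ICR mice, an outbred strain, numbered 1037, 1038 and 1039 in the labels, received a silica gel plug in a naris on postnatal day 30 and were perfused with PBS 60 days later. The series title places the occlusion on the left, so in each mouse the left bulb belongs to the plugged side and the right bulb to the unplugged side. The other 5 libraries are therefore 2 left and 3 right bulbs, and their range includes any difference between sides. No unoperated mouse is among the samples, the age after 60 days of plugging is shared by all libraries, and the labels give neither sex nor litter. Polyadenylated RNA was measured, and all 6 labels name the olfactory bulb as the tissue. Library totals ran from 14571453 reads in left 1038 to 15590938 reads in right 1037. Reads of 15921 genes were present in left 1038 and of 16413 to 16621 genes in the others.

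The olfactory bulb is the first relay of smell. Axons of olfactory sensory neurons end in its glomeruli on mitral and tufted cells, and most of its other neurons are GABAergic granule and periglomerular cells of forebrain origin that are renewed throughout life. The cerebellum arises from the hindbrain next to the midbrain border. It is dominated by small glutamatergic granule cells, whose parallel fibres contact Purkinje cells, the GABAergic output neurons of the cerebellar cortex, which are wrapped by Bergmann glia. In bulk RNA fewer cells of a type and less RNA per cell cannot be told apart, and this holds for every level given here.

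Of 13659 genes that reached 2 CPM in at least 1 library, 351 stood more than 4-fold above the highest of the other 5 libraries in left 1038, which is 2.57% of the genes compared. A further 894, or 6.55%, stood more than 4-fold below the lowest. At any fold, 5064 genes (37.1%) were above the range, 5640 (41.3%) were below it and 2955 (21.6%) were within it. The median log2 ratio of left 1038 to the median of the other 5 over all these genes was -0.03. A gene that reached 2 CPM in left 1038 alone had to stand above the range, so counts over the members of a list that passed are descriptions. Each list count below is to be read against the 37.1% of all genes above the range and the 41.3% below it. For counts past 4-fold the shares of all genes are 2.57% above and 6.55% below. When each of the other 5 libraries was set against its 4 companions in the same way, 0 to 18 genes passed 4-fold above and 0 to 2 passed below, and 51.7% to 73.3% of genes were within the range.

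Large folds were not rare in left 1038. Beyond 16-fold there were 78 genes above and 255 below, and beyond 100-fold there were 15 above and 42 below. Among the 5131 genes at 50 CPM or more in left 1038, 185 were past 4-fold above. Among the 4714 genes at 50 CPM or more in all of the other 5, 217 were past 4-fold below, and 25 of these were at less than 1% of the lowest library. At the limit itself, Appl2 (4.02-fold above) lay just inside and Fzd1 (3.99-fold) just outside, while Prkar2b (4.04-fold below) lay just inside and Adarb2 (3.99-fold) just outside.

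**Figure D1:**
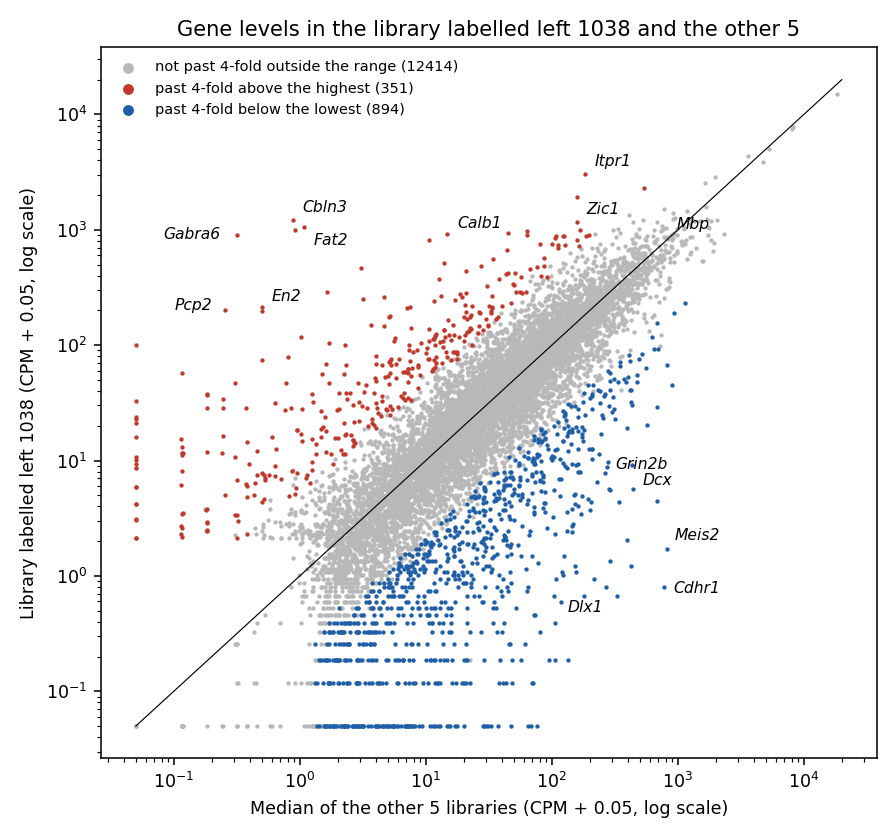
Level of each of the 13659 genes in the library labelled left 1038 (vertical axis) against the median of the other 5 libraries (horizontal axis), both in CPM plus 0.05 on log scales, with the line of equality; red and blue points are genes past 4-fold outside the range of the other 5. Red genes such as Cbln3 reach 1217 CPM at about 1 CPM in the others, and the 894 blue genes extend down to 0 reads in left 1038.

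The 5 genes that mark the contrast stood far outside the range, 3 above and 2 below. In each list of values below, the other 5 libraries stand in the order left 1037, right 1037, right 1038, left 1039 and right 1039. Cbln3, a secreted cerebellin made by cerebellar granule cells, was at 1217 CPM in left 1038 (95% Poisson interval 1199 to 1235 CPM, counting error only) and at 1.101, 0.834, 0.662, 0.863 and 0.478 CPM in the others. That level was 1105-fold above the highest, with a counting interval of 689.9 to 1897 for the ratio. Gabra6, the GABA-A receptor subunit typical of cerebellar granule cells, was at 896 CPM against 1.04, 0.128, 0.265, 0.266 and 0.614 CPM, 864-fold above the highest. Fat2, a giant cadherin of granule cell parallel fibres, was at 1054 CPM against 1.04, 0.385, 0.861, 1.26 and 1.02 CPM, 836-fold above the highest. In GRCm38 the gene Cbln3 lies on chromosome 14, 55878913 to 55884392, Gabra6 on chromosome 11, 42306437 to 42321072 and Fat2 on chromosome 11, 55250609 to 55336564. No library other than left 1038 exceeded 2 CPM for any of these 3 genes.

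The 2 bulb markers showed the opposite arrangement. Dlx1, a homeobox factor of forebrain GABAergic neurons, was at 0.618 CPM in left 1038 (interval 0.282 to 1.17 CPM) and at 326, 304, 358, 343 and 326 CPM in the others, 492-fold below the lowest. Cdhr1, a protocadherin of mitral and tufted cells, was at 0.755 CPM (interval 0.377 to 1.35 CPM) against 821, 769.7, 829.5, 663 and 754 CPM, 878-fold below the lowest. Dlx1 lies on chromosome 2, 71528113 to 71533981 and Cdhr1 on chromosome 14, 37077857 to 37098347. The other 5 libraries, left and right alike, differed from each other by far less than any of them differed from left 1038. The levels of these 5 genes in left 1038 go against the tissue its label names. The library was picked out by these same genes, so this restates the choice and adds no separate evidence on the label.

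**Figure D2:**
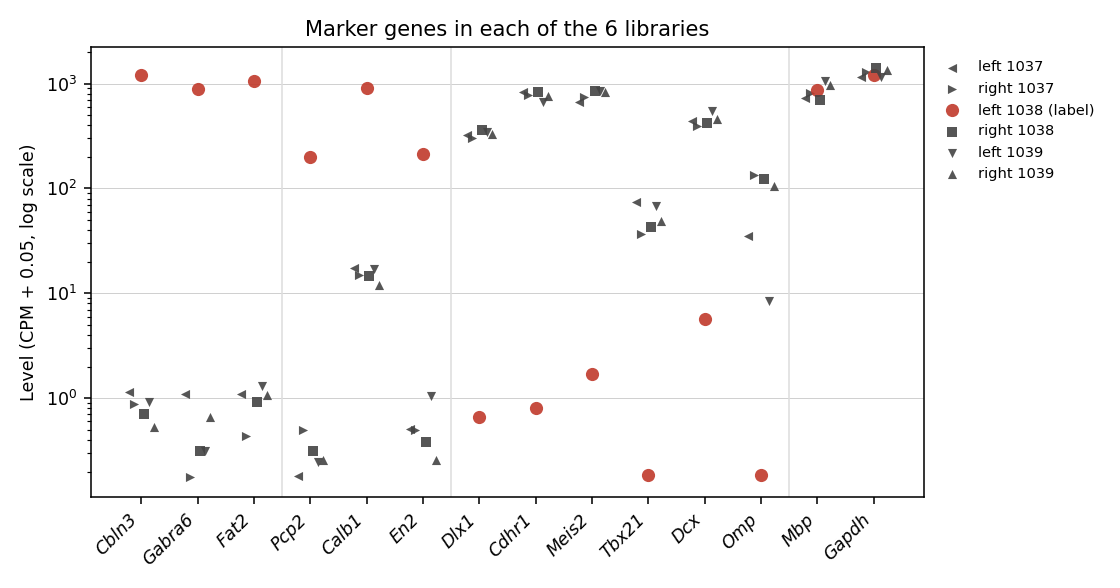
Level of 14 genes in each of the 6 libraries, in CPM plus 0.05 on a log scale; the red circle is the library labelled left 1038 and the dark symbols are the other 5. Cerebellar genes (first 6) stand at 200 CPM or more in left 1038 alone, forebrain, bulb, neuroblast and sensory neuron genes (Dlx1 to Omp) stand below all other libraries, and Mbp and Gapdh lie within their range.

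Promoter sequences are printed for 4 of the marker genes, Cbln3 and Gabra6 above and Dlx1 and Cdhr1 below. Each window runs from 250 bases before to 50 after the RefSeq start (GRCm38.p6), 5′ to 3′ on the gene's strand. Capitals mark matches, on either strand, to 4 words: TAATTA (a homeodomain core), CAGATG (an E-box form), AGGTCA (a nuclear receptor motif core) and TTGGCA (a nuclear factor I core, read as TGCCAA on the other strand). The windows are at chr14:55884207-55884506, minus strand for Cbln3, chr11:42321023-42321322, minus strand for Gabra6, chr2:71529195-71529494, plus strand for Dlx1 and chr14:37098298-37098597, minus strand for Cdhr1.
Cbln3: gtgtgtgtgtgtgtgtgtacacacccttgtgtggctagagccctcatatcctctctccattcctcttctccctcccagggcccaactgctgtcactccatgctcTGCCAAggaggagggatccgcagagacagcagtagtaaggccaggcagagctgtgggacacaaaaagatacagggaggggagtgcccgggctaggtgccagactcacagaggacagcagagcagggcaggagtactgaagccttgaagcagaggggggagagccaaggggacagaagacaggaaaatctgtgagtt
Gabra6: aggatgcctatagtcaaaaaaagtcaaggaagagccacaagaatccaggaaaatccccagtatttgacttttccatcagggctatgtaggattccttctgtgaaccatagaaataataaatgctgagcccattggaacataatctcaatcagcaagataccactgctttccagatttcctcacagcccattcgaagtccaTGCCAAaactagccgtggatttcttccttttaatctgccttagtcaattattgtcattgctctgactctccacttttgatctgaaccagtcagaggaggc
Dlx1: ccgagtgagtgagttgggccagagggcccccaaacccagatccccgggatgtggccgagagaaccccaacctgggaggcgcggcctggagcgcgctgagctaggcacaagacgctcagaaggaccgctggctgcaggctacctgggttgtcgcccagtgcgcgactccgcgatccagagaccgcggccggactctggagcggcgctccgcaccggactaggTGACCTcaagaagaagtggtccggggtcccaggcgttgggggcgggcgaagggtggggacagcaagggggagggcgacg
Cdhr1: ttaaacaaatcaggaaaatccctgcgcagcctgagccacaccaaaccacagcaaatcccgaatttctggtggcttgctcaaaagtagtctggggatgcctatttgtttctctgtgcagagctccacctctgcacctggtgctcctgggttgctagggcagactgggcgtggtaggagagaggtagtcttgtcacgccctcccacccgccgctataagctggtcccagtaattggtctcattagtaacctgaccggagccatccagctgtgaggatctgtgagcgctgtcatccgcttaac
The windows of Cbln3 and Gabra6 each hold 1 TTGGCA match and no other match, that of Dlx1 holds 1 AGGTCA match, and that of Cdhr1 holds none. The window of Fat2, the remaining marker above, is not printed. Like that of Dlx1 it holds 1 AGGTCA match and no TTGGCA match. TTGGCA is in 14.1% of all 32851 mouse windows of this length and AGGTCA in 16.3%. The windows differ in base composition, from 42.0% GC for Gabra6 to 69.3% for Dlx1. Of the 185 genes past 4-fold above at 50 CPM, 128 had a window, and of the 217 below, 162 had one, which is under 80% of each set, so shares of these words over the sets are void as a comparison. A match is a description of letters, and no factor was measured on these promoters.

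Genes of cerebellar granule cells stood high as a group. Of 20 listed, 19 passed 2 CPM, 18 were above the range and 12 were past 4-fold above, with a median log2 ratio of 3.28 (the same median varied over the other 5 libraries with an SD of 0.10). Beside Cbln3, Gabra6 and Fat2, Neurod1, a factor of granule cell differentiation, was at 518 CPM against 36.99, 10.8, 12.6, 36.3 and 13.9 CPM, 14.01-fold above the highest. Cbln1, the cerebellin that bridges parallel fibres to Purkinje cell receptors, was at 982 CPM against 74.8, 61.4, 62.9, 62.1 and 63.3 CPM, 13.1-fold above the highest. Barhl1, a homeobox gene of the granule cell lineage, was at 9.26 CPM in left 1038, and among the others only left 1039 had a read. Tlx3, another homeobox gene, was at 23.8 CPM with no read in any of the other 5, at least 116-fold above the highest where 3 reads are taken as the floor of a library. Rbfox3, which encodes the neuronal marker NeuN and is not specific to the cerebellum, was 1.93-fold above the highest (390.5 CPM against 165 to 202 CPM).

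The granule cell list held exceptions. Atoh1, the factor of granule cell precursors in development, had no read in left 1038 and did not reach 2 CPM in any library. Slc17a7, the vesicular glutamate transporter that both granule cells and mitral cells use, was at 541 CPM against 648, 571, 618, 569 and 569 CPM. That is just below the lowest library by share of total reads and within the range under TMM or RLE scaling, so no direction is given for it.

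Purkinje cell genes were likewise high. All 26 listed genes passed 2 CPM, 25 were above the range and 16 were past 4-fold above, with a median log2 ratio of 3.09. Pcp2, which binds G proteins and is almost restricted to Purkinje cells and retinal bipolar cells, was at 201 CPM against 0.1296, 0.449, 0.265, 0.199 and 0.205 CPM, 447-fold above the highest. Calb1, the calcium buffer calbindin, was at 914 CPM against 17.5, 14.8, 14.7, 16.9 and 11.9 CPM, 52.3-fold above the highest. Car8, a carbonic anhydrase relative that binds the IP3 receptor, was at 822 CPM against 9.26, 10.3, 10.5, 11.9 and 10.8 CPM, 69.2-fold above the highest. Itpr1, that IP3 receptor, showed the largest gain in CPM of all genes, from 175 to 194 CPM in the others to 3033 CPM, 15.6-fold above the highest. The spread among the other 5 libraries was small beside each of these gaps.

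Members of the same Purkinje cell signalling chain stood beside Itpr1. Homer3, which links metabotropic glutamate receptors to IP3 receptors, was 13.5-fold above the highest (279.8 CPM against 14.2 to 20.7 CPM). Slc1a6, a glutamate transporter of Purkinje cells, was 30.99-fold above the highest (150.2 CPM against 3.01 to 4.85 CPM). Lhx1, a LIM homeobox factor of these cells, was 67.8-fold above the highest (79.1 CPM against 0.531 to 1.17 CPM), and its relative Lhx5 was 13.1-fold above the highest (17.02 CPM against 0.331 to 1.296 CPM). The retinoid-related receptor gene Rora was 4.21-fold above the highest (401 CPM against 77.1 to 95.2 CPM). Foxp2 was the only listed Purkinje gene below the range, at 11.5 CPM against 26.4, 27.6, 20.8, 30.1 and 25.8 CPM, 1.82-fold below the lowest.

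The remaining cerebellar lists were smaller and less uniform. Among all genes compared, 37.1% were above the range and 41.3% below it, with 2.57% and 6.55% past 4-fold. Of 8 Bergmann glia genes, 6 were above the range and 3 past 4-fold above. Dao, the D-amino acid oxidase of hindbrain astrocytes, was at 57.1 CPM against 0.259, 0.0641, 0.0662, 0.0664 and 0.0683 CPM, 220.3-fold above the highest, and Gdf10, a growth factor of Bergmann glia, was 7.19-fold above the highest (194 CPM against 11.2 to 26.95 CPM). Fabp7, a fatty acid binding protein that olfactory ensheathing cells also make, was 3.95-fold below the lowest (41.2 CPM against 162 to 374 CPM). Of 12 genes of Golgi and molecular layer interneurons, 8 were above and 4 below, with 6 and 3 past 4-fold. Pvalb, the calcium buffer parvalbumin, was at 468 CPM against 2.53, 3.01, 4.97, 1.33 and 4.57 CPM, 94.2-fold above the highest. Slc6a5, the glycine transporter of glycinergic neurons, was at 33.8 CPM against 0.194, 0, 0.397, 0 and 0.205 CPM, 84.9-fold above the highest. Nxph1, a neurexin ligand, and Grm2, a metabotropic receptor of Golgi cells, were on the other side, 5.51-fold and 4.19-fold below the lowest.

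Genes of unipolar brush cells and of the deep cerebellar nuclei did not share the pattern of the granule and Purkinje cell lists. Of 6 unipolar brush cell genes 4 passed, with 2 above and 2 below the range and none past 4-fold. That split is near that of all genes, 37.1% above the range and 41.3% below it, with 6.55% past 4-fold below. Eomes, a T-box factor that these cells share with mitral and tufted cells, was at 66.4 CPM against 209.8, 185, 206, 193 and 205 CPM, 2.79-fold below the lowest. Of 5 genes of cerebellar nuclei neurons, none was above the range and 4 were past 4-fold below. Slc17a6, the second vesicular glutamate transporter, was at 0.137 CPM (2 reads) against 33.8, 40.5, 38.4, 31.99 and 40.1 CPM. Spp1, osteopontin, was at 0.4804 CPM against 42.2, 66.4, 51.4, 37.8 and 60.4 CPM, 78.8-fold below the lowest. Tbr1, a T-box factor of projection neurons, was 18.8-fold below the lowest (1.03 CPM against 19.3 to 22.2 CPM). The neurofilament gene Nefh was within the range (56.4 CPM against 53.8 to 69.96 CPM).

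Transcription factors and signals of the midbrain-hindbrain region that passed the filter stood above the range. Of 17 genes of the midbrain-hindbrain region 7 passed, and all 7 were past 4-fold above, with a median log2 ratio of 4.93. None of these 7 reached 2 CPM in any of the other 5, so passing the filter already placed them above. En2, an engrailed factor that patterns the cerebellum, was at 213 CPM against 0.454, 0.449, 0.331, 0.996 and 0.205 CPM, 214-fold above the highest. Pax2, present in inhibitory interneurons of the cerebellum, was at 10.6 CPM with no read elsewhere, at least 51.6-fold above the highest. Pax3 was at 8.58 CPM against 0 to 0.132 CPM, and Irx1 at 6.38 CPM against 0.192 to 1.32 CPM. En1, Pax5, Pax7, Gbx2, Fgf8 and Wnt1 had at most 1 read in left 1038. None of the 39 Hox genes, which mark the hindbrain and spinal cord behind the cerebellum, reached 2 CPM in any library, and 32 of them had no read in left 1038.

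Zinc finger genes of the Zic family, active in granule cells and in bulb interneurons, were all 5 above the range and 3 were past 4-fold. Zic1 was at 1173 CPM against 198, 148, 154, 196 and 158 CPM, 5.91-fold above the highest. Zic2 was 7.05-fold above the highest, Zic4 3.09-fold and Zic5 8.02-fold above. The 4 nuclear factor I genes, which act in granule cell maturation, were above by less: Nfix 3.03-fold, Nfia 2.83-fold, Nfic 2.74-fold and Nfib 1.92-fold.

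Transcription factors of the forebrain were mostly below the range. Of 29 listed genes 23 passed; 20 were below the range, 18 of them past 4-fold, and 8 of the 29 had no read in left 1038. Their median log2 ratio was -6.44 (SD of the same median over the other 5, 0.07), and -4.31 with no level filter. A gene under 2 CPM in left 1038 could pass only through the other 5 and could then not stand above their range. Meis2, a homeobox factor abundant in bulb interneurons, was at 1.65 CPM against 672, 749.8, 848, 844 and 822 CPM, 408-fold below the lowest. Dlx2 and Dlx6 had no read and were at least 259-fold and at least 169-fold below the lowest.

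Not all genes of the forebrain list were low. Pax6, expressed in cerebellar granule cells as well as in bulb interneurons, was at 178 CPM against 85.3, 78.4, 74.3, 90.4 and 76.6 CPM, 1.97-fold above the highest. Meis1 was within the range (69.2 CPM against 57.3 to 73.3 CPM). Nr2f1 was 1.25-fold above the highest and Nr2f2 was 1.696-fold below the lowest. Eomes was 2.79-fold below, whereas Tbx21, a T-box factor of mitral and tufted cells, had 2 reads, 0.137 CPM, against 73.6, 36.7, 42.5, 67.5 and 48.6 CPM.

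Genes of the bulb's own neurons were mostly low. Of 21 genes of bulb interneurons, 19 were below the range and 13 past 4-fold below, with a median log2 ratio of -3.34; the only members above it, Calb1 and Pvalb, are also on the Purkinje cell list. Sp8, a factor of periglomerular and granule cells, was at 0.343 CPM against 84.5, 106, 111, 94.9 and 111 CPM, 246-fold below the lowest. Tshz1, which guides neuroblasts within the bulb, was 8.05-fold below the lowest (47.8 CPM against 384 to 454 CPM), and Synpr, a synaptic vesicle protein, was 9.94-fold below the lowest (41.1 CPM against 409 to 511 CPM). Genes of GABA synthesis and packaging, used by inhibitory neurons of both regions, were closer to the range. Gad1, a glutamate decarboxylase, was at 648 CPM against 1293, 1899, 2052, 1485 and 1886 CPM, 1.99-fold below the lowest, and Slc32a1, the vesicular GABA transporter, was 1.08-fold below the lowest (97.8 CPM against 105 to 148 CPM).

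Of 11 dopaminergic genes, 4 were above the range, 1 within and 6 below, 4 of these past 4-fold. Of all genes, 37.1% were above the range and 41.3% below it, with 6.55% past 4-fold below. Th, tyrosine hydroxylase, was at 8.51 CPM against 48.98, 145, 164, 38.96 and 132 CPM. The 2 left bulbs were below the 3 right bulbs for Th, and left 1038 was 4.58-fold below the lower of those left bulbs. Slc18a2, the vesicular monoamine transporter, had no read, at least 27.7-fold below the lowest (5.701 to 8.15 CPM). Slc6a3, the dopamine transporter, was 11.03-fold below the lowest (0.343 CPM against 3.78 to 9.27 CPM). Etv1 (1.901-fold), Klf7 (1.03-fold), Nr2f1 (1.25-fold) and Pax6 (1.97-fold) were the members above the highest.

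Of 12 mitral and tufted cell genes, 10 were below the range and 7 past 4-fold below, with a median log2 ratio of -3.58. Lbhd2 had no read, at least 56.1-fold below the lowest (11.5 to 23.97 CPM). Cck, the peptide of tufted cells, was at 5.28 CPM against 54.8, 107, 96.5, 43.4 and 88.6 CPM, 8.22-fold below the lowest. Reln, the extracellular protein reelin, made by mitral cells and by cerebellar granule cells, was at 435 CPM against 786, 556, 482, 642 and 552 CPM, only 1.11-fold below the lowest. Barhl2 and Kcna2 were the members above, 8.04-fold and 1.38-fold.

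Genes of neuroblasts and newborn neurons, which reach the bulb from the ventricular wall throughout life, were all below. Of 13 listed genes 12 passed, all 12 were below the range and 11 past 4-fold, with a median log2 ratio of -3.95. Dcx, a microtubule protein of migrating neurons, was at 5.63 CPM against 439, 393, 422, 552 and 463 CPM, 69.8-fold below the lowest. Sox4 and Sox11, factors of newborn neurons, were 19.1-fold and 10.5-fold below the lowest, and Cd24a, a surface protein of neuroblasts, was 25.9-fold below the lowest. Prokr2, the receptor that attracts neuroblasts into the bulb, had no read, at least 98.4-fold below the lowest (20.3 to 58.9 CPM).

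Olfactory sensory neuron transcripts reach the bulb in axons. Of 15 genes 14 passed, with 3 above, 2 within and 9 below the range, where 37.1% of all genes were above and 41.3% below. Omp, olfactory marker protein, had 2 reads, 0.137 CPM, against 35.1, 134, 123, 8.43 and 105 CPM. S100a5, a calcium-binding protein of these neurons, had none, against 3.63, 108, 76.8, 1.53 and 75.7 CPM. Both genes were lower in the 2 left bulbs than in the 3 right bulbs, and left 1038 was below those left bulbs too. Gng13, a G protein subunit also known from Purkinje cells, stood 4.03-fold above the highest (149.7 CPM against 6.84 to 37.1 CPM), and Gnal, the G protein alpha subunit of the olfactory and striatal pathways, was 1.34-fold above the highest (130.3 CPM against 72.7 to 97.2 CPM).

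Ensheathing glia, which wrap the sensory axons in the outer bulb, gave 7 of 9 listed genes below the range and 2 past 4-fold. The shares of all genes were 41.3% below the range and 6.55% past 4-fold below. Frzb, a Wnt antagonist, was at 3.36 CPM against 70.8, 71.6, 77.5, 52.9 and 85.6 CPM, 15.7-fold below the lowest. Npy was 6.24-fold below the lowest (10.5 CPM against 65.5 to 111 CPM), Sox10 was 3.87-fold below the lowest (11.2 CPM against 43.3 to 55.7 CPM), and S100b was 1.86-fold above the highest (279.5 CPM against 91.1 to 150.5 CPM).

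**Figure D3:**
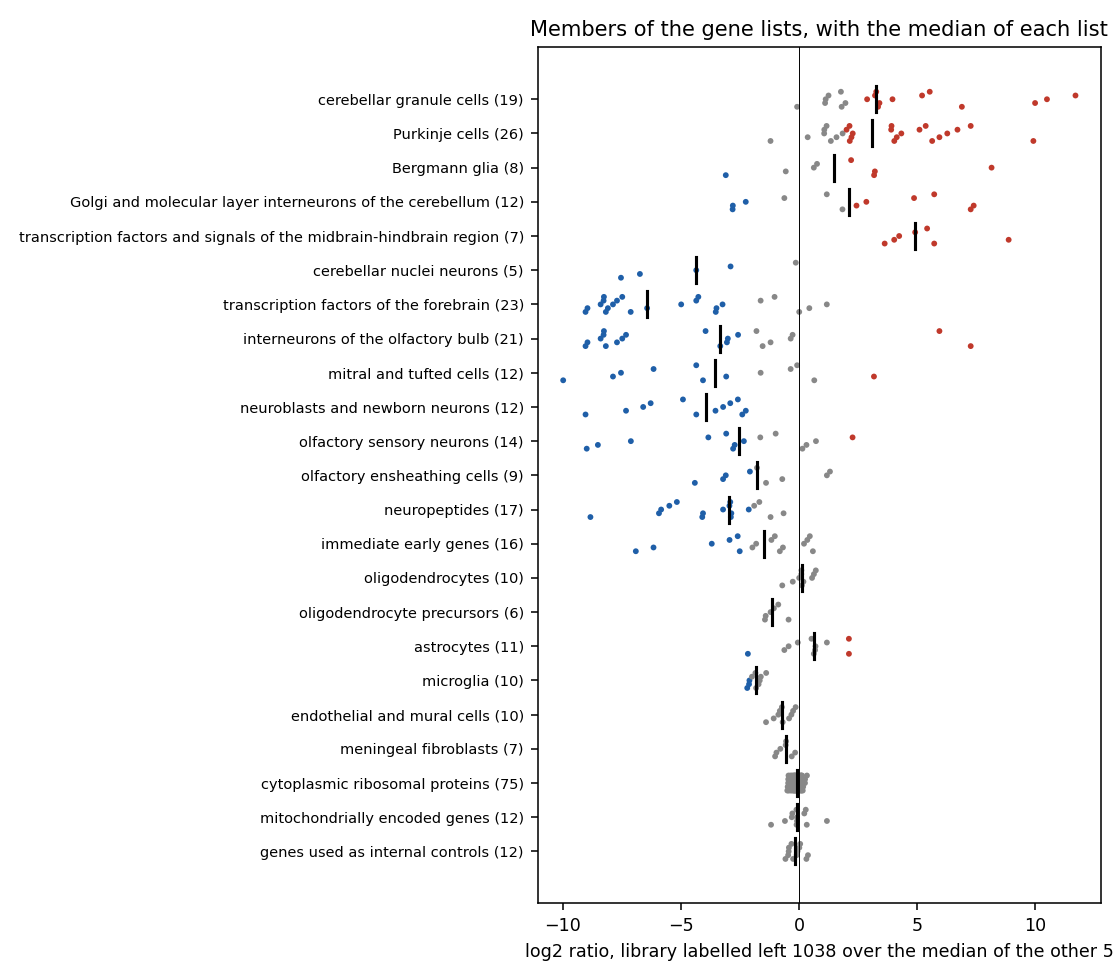
Log2 ratio of the library labelled left 1038 to the median of the other 5 libraries for members of 23 gene lists (number of members that passed 2 CPM in brackets); each point is a gene, red above 2 and blue below -2, and black bars are list medians. Granule cell, Purkinje cell and midbrain-hindbrain genes lie to the right, forebrain factors, bulb neuron genes and neuroblast genes to the left, and ribosomal protein genes around 0.

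Lists for neighbouring brain regions were read in the same way, against 37.1% of all genes above the range and 41.3% below it. Of 10 cortical genes 9 passed, with 1 above, 1 within and 7 below the range. Neurod2, a factor of maturing glutamatergic neurons that granule cells also express, was at 180.01 CPM against 5.18, 4.36, 4.57, 9.03 and 5.26 CPM, 19.9-fold above the highest. Nrgn, neurogranin, was 40.3-fold below the lowest (2.26 CPM against 91.2 to 128 CPM), and Camk2a, a calcium-dependent kinase subunit, was 11.4-fold below the lowest (67.05 CPM against 762 to 893 CPM). Of 9 striatal genes 8 passed; 7 were below the range, none past 4-fold, and Ppp1r1b, which encodes DARPP-32, was 3.62-fold above the highest (128 CPM against 22.4 to 35.4 CPM). Only 2 of 8 hypothalamic peptide genes and none of 8 genes of monoamine neurons of the midbrain and brainstem passed 2 CPM. Trh, thyrotropin releasing hormone, also a bulb peptide, had 2 reads in left 1038, 0.137 CPM, against 52.9, 102, 136, 42.4 and 94.3 CPM.

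Of 8 choroid plexus genes 5 passed, with 1 above, 1 within and 3 below the range, where 37.1% of all genes were above and 41.3% below. Otx2, a homeobox factor of choroid plexus that also has a role in the cerebellum, was at 37.95 CPM against 1.62, 0.834, 0.861, 1.19 and 1.23 CPM, 23.4-fold above the highest. Ttr, transthyretin, the most abundant choroid plexus transcript, was at 20.2 CPM against 171, 5.71, 7.02, 7.103 and 7.44 CPM. Left 1037 stood far above the other libraries for Ttr, and without it left 1038 stands above the range. Folr1, Kcne2 and Sostdc1 did not reach 2 CPM in any library, and Aqp1, a water channel, was 49.6-fold below the lowest (0.686 CPM against 34.1 to 41.9 CPM). Of 6 ependymal genes 2 passed: Foxj1 was 4.16-fold below the lowest and Rarres2 1.06-fold above the highest.

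Genes of glia and vessels were mostly within 4-fold of the range, as were genes in general. Over all 13659 genes, 37.1% were above the range and 41.3% below it, with 2.57% past 4-fold above and 6.55% past 4-fold below. Of 10 oligodendrocyte genes 5 were within the range, 4 above and 1 below, none past 4-fold, with a median log2 ratio of 0.11. Mbp, myelin basic protein, was at 873 CPM against 731, 814, 703, 1057 and 959 CPM, within the range. All 6 genes of oligodendrocyte precursors were below, none past 4-fold, although Cspg4 was within the range under TMM or RLE scaling. Pdgfra, the growth factor receptor of these precursors, was 2.26-fold below the lowest (17.5 CPM against 39.6 to 50.2 CPM). Of 11 astrocyte genes 7 were above and 3 below. Aldoc, aldolase C, which Purkinje cells also express in stripes, was at 2319 CPM against 575, 497, 535, 531 and 545 CPM, 4.03-fold above the highest. Gfap, the filament protein of fibrous astrocytes, was at 66.2 CPM against 543, 221, 248, 578 and 297 CPM, 3.35-fold below the lowest.

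All 10 microglial genes were below the range, 1 of them past 4-fold, with a median log2 ratio of -1.83. For this list and those of vessels and meninges, the share of all genes below the range was 41.3%, with 6.55% past 4-fold. Cx3cr1, the fractalkine receptor, was at 7.55 CPM against 42.3, 34.5, 31.4, 38.8 and 30.5 CPM, 4.04-fold below the lowest. P2ry12, a purine receptor of resting microglia, was 3.56-fold below the lowest (9.54 CPM against 33.9 to 51.3 CPM), and C1qa, a complement subunit, was 2.66-fold below the lowest (10.1 CPM against 26.8 to 46.5 CPM). Of 10 endothelial and mural genes 8 were below and 2 within (median log2 ratio -0.71), and of 7 meningeal genes 6 were below and 1 within (-0.56), the last with Dcn within the range under TMM or RLE scaling. Both haemoglobin genes that passed, Hba-a1 and Hbb-bs, were within it.

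Within receptor families, paralogues stood on both sides of the range, as genes in general did (37.1% above and 41.3% below). Of 4 cerebellins, Cbln1 and Cbln3 stood above, and Cbln2 and Cbln4, which bulb and cortical neurons express, stood below. Cbln2 was at 0.206 CPM (3 reads) against 62.002, 45.3, 40.6, 57.9 and 37.5 CPM, and Cbln4 at 0.0686 CPM (1 read) against 29.5, 38.4, 39.2, 20.7 and 41.2 CPM. Of 19 GABA-A receptor genes 14 passed, 3 were above and 9 below the range, with 2 and 4 past 4-fold. Gabrd, the delta subunit that pairs with alpha 6 in receptors outside synapses, was at 327 CPM against 33.2, 31.8, 27.8, 30.7 and 25.7 CPM, 9.84-fold above the highest. Gabra5 was at 0.892 CPM against 85.1, 107, 143, 108 and 102 CPM, 95.4-fold below the lowest. Gabra3 (12.1-fold) and Gabrg3 (12.6-fold) were also past 4-fold below, and Gabrq, with no read, was at least 19.2-fold below the lowest. Gabrb2, a subunit of the common receptor, was within the range (107 CPM against 84.96 to 190.5 CPM).

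As granule cells mature, the 2B subunit of their NMDA receptors gives way to 2C. Of 7 NMDA receptor genes 3 were above the range and 4 below, with 2 and 1 past 4-fold. Over all genes 37.1% were above and 41.3% below, and the counts of glutamate receptor genes are to be read against these shares. Grin2c was at 748 CPM against 92.6, 79.3, 73.01, 80.5 and 80.001 CPM, 8.07-fold above the highest. Grin2b was at 7.75 CPM against 197, 248.9, 265, 266 and 274 CPM, 25.4-fold below the lowest. The obligatory subunit Grin1 was at 417 CPM against 425, 479.8, 508, 441 and 501 CPM, slightly below the range by share of reads and within it under TMM or RLE scaling. Of 8 metabotropic glutamate receptor genes 7 passed, with 2 above and 4 below the range. Grm4, the presynaptic receptor of parallel fibres, was 7.19-fold above the highest (891 CPM against 108 to 124 CPM), whereas Grm5 was 27.3-fold below the lowest (5.08 CPM against 139 to 177 CPM) and Grm8 5.703-fold below the lowest. Of 11 AMPA, kainate and delta receptor genes 4 were above and 6 below.

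Channel genes had members on both sides of the range. Over all 13659 genes 37.1% were above the range and 41.3% below it at any fold, so a near-even split of a family is close to that of all genes, and the values of single members are what is described. Of 15 voltage-gated potassium channel genes that passed, 7 were above and 7 below the range, with 2 and 6 past 4-fold. Kcnc4, a channel of fast-firing neurons, was 5.85-fold above the highest (79.1 CPM against 9.11 to 13.5 CPM), while its paralogue Kcnc2 was 26.8-fold below the lowest (2.54 CPM against 68.03 to 103 CPM) and Kcnb2 20.3-fold below the lowest. Of 11 sodium channel genes that passed, 6 were above and 5 past 4-fold below. Scn4b, the beta subunit tied to resurgent current in Purkinje cells, was at 30.1 CPM against 0.907, 2.82, 2.58, 1.26 and 2.66 CPM, 10.7-fold above the highest. Scn3a and Scn3b were 35.1-fold and 50.6-fold below the lowest. Of 8 calcium channel pores that passed, 2 were above and 5 below, although Cacna1i was within the range under TMM or RLE scaling. Cacna1a, the P/Q-type pore of Purkinje cells, was 3.96-fold above the highest (686 CPM against 152 to 174 CPM), and Cacna1h, a T-type pore, was 39.4-fold below the lowest (3.98 CPM against 157 to 167 CPM). Of 10 K2P potassium channel genes that passed, 5 were above and 5 below; Kcnk3 was 4.84-fold above the highest and Kcnk15 20.1-fold below the lowest.

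**Figure D4:**
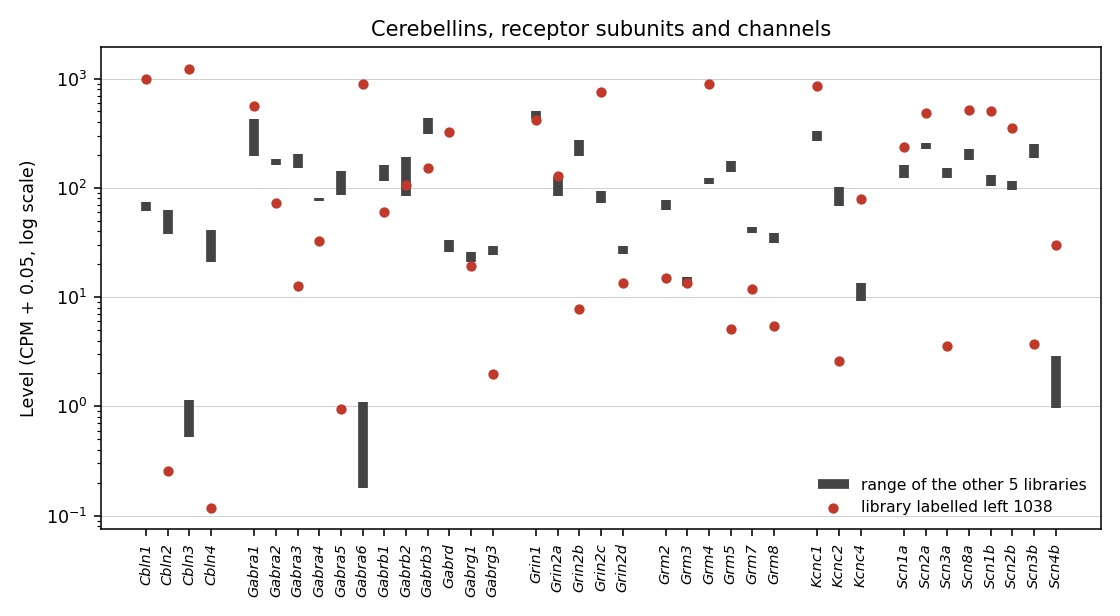
Levels of cerebellins, GABA-A, NMDA and metabotropic glutamate receptor genes, Kcnc potassium channels and sodium channels, in CPM plus 0.05 on a log scale; dark bars span the other 5 libraries and red points are the library labelled left 1038. In each family some members lie above the bar and others below it, such as Cbln3 at 1217 CPM and Cbln4 at 0.0686 CPM; levels of different genes are not corrected for transcript length.

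Genes of calcium stores and of transmitter release also held members on both sides of the range, at shares to be read against the 37.1% of all genes above and 41.3% below it. Of 12 genes of calcium release and pumping that passed, 6 were above and 6 below, although Itpr2 was within the range under TMM or RLE scaling. Atp2a3, a pump of the endoplasmic reticulum found in Purkinje cells, was at 213 CPM against 5.38, 7.38, 9.27, 8.098 and 6.28 CPM, 22.9-fold above the highest, and Ryr3 was 4.98-fold below the lowest. Of 15 synaptotagmin genes that passed, 7 were above and 8 below, with 1 and 3 past 4-fold. Syt2, the fast calcium sensor of hindbrain synapses, was at 252 CPM against 4.79, 4.75, 2.32, 3.12 and 2.53 CPM, 52.6-fold above the highest. Syt6 was at 4.32 CPM against 252, 351, 371, 266 and 338 CPM, 58.3-fold below the lowest. Syt1, the sensor of most forebrain synapses, was 2.59-fold below the lowest (533 CPM against 1380.3 to 1719 CPM). Of 6 neurexin and neuroligin genes 2 were above, 1 within and 3 below, none past 4-fold. Of 8 genes of the nitric oxide and cyclic GMP pathway 2 were above and 5 below. Prkg2, a cyclic GMP-dependent kinase, was past 4-fold below, with 2 reads in left 1038 (0.137 CPM against 17.5 to 25.9 CPM).

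All 17 neuropeptide genes were below the range and 10 past 4-fold below, with a median log2 ratio of -2.95. Vip was at 0.343 CPM against 13.7, 20.97, 21.99, 19.1 and 23.004 CPM, 39.8-fold below the lowest. Nmb, neuromedin B, was 6.73-fold below the lowest, Cartpt had no read (at least 33.04-fold below the lowest), and Penk, which cerebellar Golgi cells also express, was only 1.32-fold below the lowest (80.5 CPM against 106 to 206 CPM). Of 16 immediate early genes 12 were below, 5 of them past 4-fold. Egr3 was at 0.343 CPM against 33.6, 61.9, 41.4, 41.3 and 51.9 CPM, 97.8-fold below the lowest, and Arc, an activity-induced synaptic gene, was 7.29-fold below the lowest (12.4 CPM against 90.6 to 201 CPM). Fos was at 32.3 CPM against 32.5, 61.3, 56.6, 55.2 and 72.9 CPM, at the edge of the range and within it under TMM or RLE scaling. Of 9 genes of the extracellular matrix around neurons, 1 was above, 4 within and 4 below. Ncan, neurocan, was 22.03-fold below the lowest (9.75 CPM against 215 to 297 CPM) and Acan, aggrecan, was 30.2-fold below the lowest, whereas Hapln4, a link protein of brainstem and cerebellar nets, was 2.24-fold above the highest. Of 7 glycine receptor and transporter genes 2 were above and 5 below, among them Glra2 (5.76-fold below the lowest). Over all genes 37.1% were above the range and 41.3% below it.

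Some of the genes with the largest folds were on none of these lists. Cnpy1, a regulator of FGF signalling at the midbrain-hindbrain border, was at 1001 CPM against 1.36, 0.449, 1.06, 0.863 and 0.614 CPM, 736-fold above the highest. Mybpc3, the cardiac form of myosin binding protein C, was at 101 CPM with at most 1 read in any other library, a ratio of 1523 to the highest, with a 95% counting interval of 273 to 60192. Il20rb, a cytokine receptor chain, was 248-fold above the highest (198 CPM against 0.199 to 0.797 CPM). Il16, whose long neuronal form is known from cerebellar granule cells, was 85.1-fold above the highest (288 CPM against 1.22 to 3.39 CPM), Adamts18, a secreted protease, was 76.2-fold above the highest, and Arhgef33 was 55.8-fold above the highest. Adcy1, the calcium-stimulated adenylyl cyclase, had one of the 5 largest gains in CPM, at 1909 CPM against 138, 177, 168, 136 and 159 CPM, 10.8-fold above the highest.

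Among the genes below, Cpne7, a calcium-dependent membrane-binding protein, had 2 reads in left 1038 (0.137 CPM against 121 to 142 CPM), and Cpne4 of the same family was 219-fold below the lowest (1.304 CPM against 285 to 344 CPM). Frmd7, a cytoskeletal protein linked to eye movement, was 272-fold below the lowest (0.618 CPM against 168 to 219 CPM). Gda, guanine deaminase, was at 0.755 CPM against 199.6, 271, 305, 256 and 271 CPM, 264-fold below the lowest, and Ddn, dendrin, a protein of forebrain dendrites, was 235-fold below the lowest (1.17 CPM against 274 to 439.7 CPM). Sp9 was 259-fold below the lowest (0.275 CPM against 71.1 to 102 CPM). Ankrd34c had 3 reads (0.206 CPM against 51.05 to 63.5 CPM), and Sall3, a zinc finger factor of bulb interneurons, had 1 (0.0686 CPM against 65.2 to 86.7 CPM). The largest losses in CPM were smaller as folds: Ndrg4 was 2.304-fold below the lowest (926 CPM against 2132 to 2426 CPM), Glul, glutamine synthetase, 2.41-fold below the lowest, and Map2, a dendritic microtubule protein, 2.49-fold below the lowest. mt-Co1, with the largest loss against the median, was within the range (14903 CPM against 13242 to 19448 CPM).

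Of the 38 genes named for their fold or their difference in CPM or as markers, 6 overlap another expressed gene in the annotation, among them Pcp2, Il16, Arhgef33, Glul and Sp9. No source names the strand setting of the counting, so their reads cannot be told apart from those of the overlapping gene.

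Genes that most cells need were at similar levels in all libraries. Of 80 cytoplasmic ribosomal protein genes 75 passed; 36 were within the range, 33 below, 6 above and none past 4-fold, with a median log2 ratio of -0.10. Several of them changed between within and outside the range under other scalings, so no direction is given for the group. Mitochondrially encoded genes made up 4.37% of reads in left 1038 and 3.63% to 5.10% in the others, and 9 of 12 such genes were within the range. Gapdh was at 1208 CPM against 1142, 1293, 1411, 1142 and 1346 CPM. Of 12 genes used as internal controls 2 were above, 4 within and 6 below the range, none past 4-fold. Y-linked Ddx3y, Eif2s3y, Kdm5d and Uty were at 91.5 CPM, 122 CPM, 71.03 CPM and 80.1 CPM in left 1038 and present in every library. Xist is not analysed here.

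The genes with the largest folds had almost no reads on the other side, which is how they were picked, so the shares that follow describe the choice. The 15 genes with the largest folds above summed to 6773 CPM in left 1038 and to 20.7 to 25.0 CPM in the others, which is 0.306% to 0.368% of the sum in left 1038. The 15 genes with the largest folds below summed to 118 reads, or 8.10 CPM (95% Poisson interval 6.70 to 9.70 CPM), in left 1038 and to 3389 to 3865 CPM in the others. The sum in left 1038 was 0.239% of the lowest of these. Where these small levels come from was not tested.

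Genes that differ between mice were looked at in left 1038, and they can be chosen without its values. This choice was made after the data had been seen, and which animal left 1038 came from was not tested. Right 1038 stood more than 4-fold above the 4 libraries of mice 1037 and 1039 for 18 genes and below them for 2. In left 1038, 4 of these 20 lay on the side of right 1038, past the midpoint between the mice on a log scale. AK157302 (chromosome 13, 21495223 to 21497146 in GRCm38) was at 9.41 CPM in right 1038, 8.58 CPM in left 1038 and 0, 0, 0 and 0.0683 CPM in left 1037, right 1037, left 1039 and right 1039. Scd3, a stearoyl-CoA desaturase, was at 26.6 CPM in right 1038, 19.1 CPM in left 1038 and 2.33, 1.67, 3.58 and 3.41 CPM in left 1037, right 1037, left 1039 and right 1039. For both genes the 2 libraries labelled 1038 were alike and the other 4 were separate from them. The levels of both genes in left 1038 could belong to its tissue or to its mouse, which cannot be told apart.

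Tpm3-rs7, a tropomyosin-related sequence, was at 0.265 CPM in right 1038, 0.137 CPM in left 1038 and 25.1, 18.02, 27.5 and 22.3 CPM in left 1037, right 1037, left 1039 and right 1039, and Dio3, a thyroid hormone deiodinase, was at 0.331 CPM in right 1038, 0.206 CPM in left 1038 and 2.397, 1.603, 3.25 and 2.05 CPM in left 1037, right 1037, left 1039 and right 1039. For these genes low levels in left 1038 could belong to its tissue or to its mouse, which cannot be told apart. The other 16 were past 4-fold in right 1038 alone. They include Bpifb9b and Bpifa6, known as secreted proteins of nasal tissue, and Ibsp and Bglap, known as bone matrix genes. Bpifb9b was at 60.8 CPM in right 1038, 0 CPM in left 1038 and 0.1296, 0.449, 2.85 and 8.19 CPM in left 1037, right 1037, left 1039 and right 1039.

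The other 2 mice were looked at in the same way, with genes that needed 2 libraries of the mouse to stand apart in place of 1, so the counts cannot be set against each other. Both libraries of mouse 1037 were more than 4-fold outside the 3 libraries right 1038, left 1039 and right 1039 for 7 genes, and left 1038 lay on the side of mouse 1037 for 1 of them, Bpifb9b. Both libraries of mouse 1039 were outside the other 3 for 4 genes, and left 1038 lay on the side of mouse 1039 for none. Mid1, a ubiquitin ligase on the X chromosome, was at 9.96 and 9.56 CPM in the libraries of mouse 1039, at 73.6 CPM in left 1038 and at 64.7, 53.1 and 61.7 CPM in left 1037, right 1037 and right 1038. Gm10031 was at 13.3 and 13.0 CPM in mouse 1039 and at 0.206 CPM in left 1038. Padi4, a protein deiminase, was at 7.84 and 6.54 CPM in mouse 1037 and had no read in left 1038 or right 1038. Of 4 genes over 8-fold apart between mice 1037 and 1039, the 2 libraries labelled 1038 lay on the same side for 3. Ccl28 was the exception, at 0.994 CPM in right 1038 and 0.549 CPM in left 1038. These are values of single genes in single libraries, and no test was made of them.

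**Figure D5:**
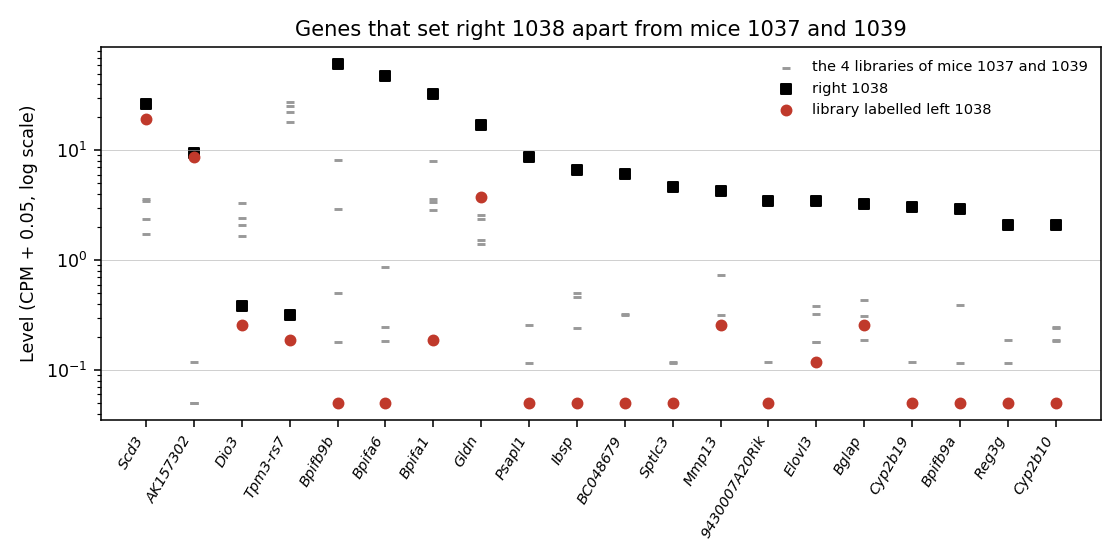
Level of the 20 genes for which right 1038 stood more than 4-fold outside the 4 libraries of mice 1037 and 1039, in CPM plus 0.05 on a log scale; black squares are right 1038, red circles the library labelled left 1038 and grey dashes the other 4 libraries. For Scd3, AK157302, Dio3 and Tpm3-rs7 the red circle lies with the black square, and for the other 16 it lies with or below the grey dashes, Gldn excepted, where it lies between.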

How the data were processed

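Polyadenylated RNA of 6 libraries was sequenced. The deposited table holds whole read counts per gene, made by the authors. The submitters' processing notes list, without order or role, the build GRCm38 and the tools DESeq 1.18.0, HTSeq 0.6.1p2, TopHat2 and cutadapt 1.2.1. Strand use and the handling of reads with several matches are not given there. The authors' RPKM columns and other columns were not used. The 6 count columns were matched to libraries by their titles; no other sample's column was present, and no 2 libraries were identical. Symbols of 21852 of 22095 genes were matched by identifier to the GENCODE vM21 and RefSeq names, and 243 had none.

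Counts were divided by the column total (CPM), in Python 3.11.15 with pandas 2.3.3. Genes with 2 CPM in at least 1 library were kept, 13659 in all. The fold was taken from left 1038 to the nearest edge of the range of the other 5, with levels under 3 reads (0.192 to 0.206 CPM) raised to 3 reads. A fold over 4 was counted. With 0 reads the fold is a lower bound. With 1 to 3 reads the levels are given. The ratio for Mybpc3 uses its reads as they are, not raised to 3, and has a 95% counting interval. No p-values were computed, since left 1038 is 1 library. Intervals cover counting error only, and reads without molecular identifiers are not independent molecules. The procedure was tested on simulated data. The alternatives were TMM and RLE scaling (edgeR 4.0.16 in R 4.3.3), other totals, filters, fold limits and floors, and leaving out each of the other 5 libraries.

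Named genes are the 5 markers, the 15 largest folds in each direction at 50 CPM, the 5 largest differences in CPM, and up to 4 members of each of 51 lists. Other list members, the genes of single mice and the closing section's families were picked with their values in view. The contrast, its markers and the lists were chosen with earlier results of these data known, so they give no independent support. Levels are not corrected for transcript length and are not compared between genes. Promoter windows come from RefSeq (GRCm38.p6), and gene positions from GENCODE vM21 (GRCm38). Some genes that the rule names are not reported here.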

Additional observations from a re-analysis of the deposited data

How the results depend on the processing

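Of the 351 genes past 4-fold above and the 894 below, 351 and 864 remained under TMM scaling, 351 and 860 under RLE scaling, and 291 and 597 with a minimum of 10 CPM, which tests fewer genes. Leaving out 1 of the other 5 libraries can only narrow the range, so no gene can be lost by it; the counts then ran from 355 to 371 above and from 911 to 938 below. Other fold limits moved the counts, to 907 above and 1834 below at 2-fold and to 167 and 468 at 8-fold. Of the list medians, that of the forebrain transcription factors was -6.35 under TMM scaling, -6.34 under RLE scaling, -4.31 with no level filter and -7.60 with a minimum of 10 CPM. That of the neuroblast genes was -3.52 under TMM, -3.51 under RLE, -3.54 with no filter, -4.35 at 10 CPM and -4.08 with a floor of 1 read. At 10 CPM the Purkinje cell median was 2.28 and the neuropeptide median -3.64. With 1 of the other 5 libraries left out, the mitral and tufted cell median ran from -3.61 to -3.38 and the neuroblast median from -4.08 to -3.91. The median of the hypothalamic peptide genes changed sign, to 0.051, with no level filter, where genes near 0 reads enter it. For 616 genes, each counted once in every setting applied to single genes, 296 values moved and 5248 did not. A value moved if it changed by more than the SD of log2 CPM over the other 5 libraries. No paired analysis was possible because no result comes from a test. Depth limits genes near 0: no level under 3 reads, about 0.2 CPM, can be told from 0, and folds above such levels are bounds or carry wide intervals.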

Other observations

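Several gene families outside the lists were chosen after their values were seen, so their counts describe that choice. Over all genes 37.1% were above the range and 41.3% below it, with 2.57% and 6.55% past 4-fold. Of 8 copine genes 6 were below the range and 4 past 4-fold below. Cpne5 was 77.9-fold below the lowest (0.686 CPM against 53.5 to 87.3 CPM) and Cpne6 35.99-fold below (9.06 CPM against 326 to 547 CPM), while Cpne9 was 5.56-fold above the highest (117 CPM against 9.59 to 21.1 CPM). All 4 muscarinic receptor genes that passed were past 4-fold below. Chrm1 was 55.1-fold below the lowest (1.24 CPM against 68.03 to 81.4 CPM), Chrm2 was 10.4-fold below (6.86 CPM against 71.2 to 129 CPM), and Chrm3 had 1 read. Of 8 Kcnh potassium channel genes 6 were past 4-fold below, Kcnh3 by the most (1.17 CPM against 147 to 168 CPM), and Kcnh1 alone was above (55.1 CPM against 29.5 to 42.1 CPM).

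Of 13 Eph receptor genes, guidance receptors for axons, 4 were above and 9 below the range. Epha8 was 38.1-fold above the highest (101 CPM against 1.57 to 2.66 CPM) and Ephb2 9.95-fold above (57.4 CPM against 3.399 to 5.77 CPM), whereas Epha5 was 13.5-fold below the lowest (17.1 CPM against 231 to 253 CPM). Of 12 carbonic anhydrase genes 6 were above and 4 below. These and the Eph receptor counts are to be read against the 37.1% of all genes above the range and the 41.3% below it. Beside Car8, Car7 was 7.97-fold above the highest (119 CPM against 7.904 to 14.97 CPM) and Car4 6.15-fold above (175 CPM against 18.9 to 28.4 CPM), while Car12 was 20.4-fold below the lowest (1.51 CPM against 30.9 to 42.3 CPM). Among neuronal pentraxins, which cluster AMPA receptors, Nptx1 was 6.06-fold above the highest (754 CPM against 66.8 to 124 CPM) and Nptx2 12.03-fold below the lowest (1.72 CPM against 20.6 to 57.02 CPM).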
